A study of Homo sapiens with 16 samples.

Results

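RNA levels of 10 genes were followed across the libraries: those of the m6A readers YTHDF1, YTHDF2, YTHDF3, YTHDC1, YTHDC2, IGF2BP1, IGF2BP2 and IGF2BP3, and the m6A erasers FTO and ALKBH5. They were taken by name, from what the proteins are known to do, and are 10 of the 60669 genes in the TPM table. Each symbol matched 1 row there and 1 row in the authors' deposited table for the poly(A) libraries. The study compared HMC3 cells, a human microglial line, that were wild type with HMC3 cells labelled as METTL3 knockout, and no treatment or time point separates the groups. Smart-seq2, which primes on the poly(A) tail, gave 5 libraries for each genotype. Ribosomal RNA depletion followed by a directional kit gave 3 libraries for each genotype. Both kinds started from 100 ng of RNA. The labels do not say whether the knockout is 1 clone or several, which exons were targeted, or whether replicates are separate cultures, so p-values measure the spread between these libraries, which may be technical.

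N6-methyladenosine (m6A) is a methyl mark placed on adenosines of messenger RNA by a nuclear complex whose catalytic subunit is METTL3. Readers bind the marked RNA. The YTHDF proteins are cytoplasmic and are best known for promoting decay of their targets, YTHDC1 is nuclear and acts in splicing and export, and YTHDC2 is an RNA helicase known from germ cells. The IGF2BP proteins bind messenger RNA through KH domains, have been described as stabilising m6A-marked targets, and are growth-associated RNA-binding proteins of embryonic tissue. FTO and ALKBH5 are AlkB-type dioxygenases that remove the methyl group. In microglia this machinery has been linked to inflammatory and interferon responses.

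Promoters and matches to the microRNA let-7 show what some of these genes share outside their coding regions. Both YTHDC genes, of which only YTHDC2 rose below, have the palindrome TGACGTCA, the cAMP response element, within 250 bases before the RefSeq start (GRCh38.p14), here in capitals. The YTHDC1 promoter lies at chr4:68350091-68350340 on the minus strand, with the element 97 bases before the start, and the YTHDC2 promoter at chr5:113513444-113513693 on the plus strand, with the element 18 bases before the start.
YTHDC1: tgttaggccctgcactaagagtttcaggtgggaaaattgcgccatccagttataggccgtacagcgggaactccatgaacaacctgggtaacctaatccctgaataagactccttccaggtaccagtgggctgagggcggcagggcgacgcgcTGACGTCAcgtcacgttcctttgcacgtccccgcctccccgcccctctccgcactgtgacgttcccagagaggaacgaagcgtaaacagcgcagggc
YTHDC2: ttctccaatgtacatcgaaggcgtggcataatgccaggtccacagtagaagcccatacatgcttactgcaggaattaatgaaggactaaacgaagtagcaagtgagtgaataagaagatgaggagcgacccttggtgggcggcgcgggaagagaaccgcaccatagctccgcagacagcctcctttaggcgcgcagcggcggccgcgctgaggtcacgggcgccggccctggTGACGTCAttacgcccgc
Of 35116 promoter windows of the same length, 1.65% hold this palindrome, and it was in 2 of the 8 promoters that matched by symbol (IGF2BP1 and YTHDF3 did not match). The promoters of YTHDF1 (chr20:63216132-63216381, minus strand) and IGF2BP2 (chr3:185825043-185825292, minus strand) are shown because these genes rose under every processing of the rRNA-depleted libraries. Capitals mark the GC box GGGCGG on either strand and, in YTHDF1, the E-box CACGTG.
YTHDF1: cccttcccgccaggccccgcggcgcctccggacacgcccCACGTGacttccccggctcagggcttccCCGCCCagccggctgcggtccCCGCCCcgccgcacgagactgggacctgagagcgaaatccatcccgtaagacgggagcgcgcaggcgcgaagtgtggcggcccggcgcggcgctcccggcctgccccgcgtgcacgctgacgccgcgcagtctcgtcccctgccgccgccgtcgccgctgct
IGF2BP2: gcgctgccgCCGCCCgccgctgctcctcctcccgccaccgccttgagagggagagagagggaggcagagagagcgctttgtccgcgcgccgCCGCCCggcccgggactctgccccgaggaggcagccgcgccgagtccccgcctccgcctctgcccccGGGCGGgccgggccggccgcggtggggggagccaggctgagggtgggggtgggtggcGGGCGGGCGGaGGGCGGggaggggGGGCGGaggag
The GC box was found in 6 of the 8 promoters, with 7 matches (one pair overlapping) before IGF2BP2, and in 42.6% of all windows. The E-box was in 2 of the 8, YTHDF1 and IGF2BP3, and in 6.34% of all windows. The CCAAT box was in 1 of the 8, YTHDC2, and in 32.0% of all windows. The core of the interferon-stimulated response element, GAAA, any 2 bases and GAAA again, on either strand, was in 0 of the 8 windows and in 3.02% of all windows.

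The 3 IGF2BP messages are textbook targets of the let-7 family, so their matches are shown beside let-7a, with its seed (bases 2 to 8) in capitals, and with the complementary heptamer CTACCTC in capitals in 30 bases of each 3′ UTR as the coding strand reads.
let-7a: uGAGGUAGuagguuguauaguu
IGF2BP1 site 1: tgtgtgcgaagtaaaCTACCTCaaggtatg
IGF2BP1 site 2: cagcagtgctagtaaCTACCTCacagagcc
IGF2BP1 site 3: gtataaatggattaaCTACCTCaatcctta
IGF2BP1 site 4: tcacttttgttttatCTACCTCttagcaaa
IGF2BP2 site: aacacacagaagaagCTACCTCaggtgttt
IGF2BP3 site: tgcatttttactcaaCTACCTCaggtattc
FTO site: gtgctactgactgccCTACCTCcctccctt
IGF2BP1 held 4 matches, at chr17:49051076-49051082, chr17:49053713-49053719, chr17:49054367-49054373 and chr17:49055012-49055018. IGF2BP2 (chr3:185644221-185644227), IGF2BP3 (chr7:23311796-23311802) and FTO (chr16:54115259-54115265) held 1 each. Of 11784 protein-coding genes tested, 2840 (24.1%) held at least 1 match and 23 (0.195%) at least 4. These shares count the whole longest coding transcript, not only its 3′ UTR. For FTO that transcript has 11766 bases, while its TPM implied a length of 4241 bases. Whether the sequence counted for FTO holds the site is therefore not known. MicroRNAs were not analysed here. The pentamer GGACT, the commonest form of the m6A consensus, occurred at 0.303 per kb in the longest coding transcript of YTHDF1, the lowest of the 10, and at 1.46 per kb in that of ALKBH5, the highest, against a median of 0.927 per kb (quartiles 0.569 and 1.38) over the genes tested. IGF2BP2 had 1.36, IGF2BP1 1.09 and YTHDF2 1.03 per kb, and the other 5 lay between 0.385 and 0.642 per kb. Methylation itself was not measured in these libraries.

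The rRNA-depleted libraries were shallow, with 266157 to 487272 reads recovered in wild type and 512627 to 1267171 in the libraries labelled knockout, so several of the 10 genes rest on few wild-type reads. Labelled knockout libraries 1 and 2 did not differ beyond sampling noise, unlike the other pairs of a label (chi-square of 1.015 per degree of freedom over 11297 genes, p = 0.132) and were counted as 1 sample, leaving 3 wild-type samples against 2. Defining markers of microglia were nearly absent: 10 of 13, among them AIF1, CX3CR1, P2RY12, TMEM119 and SPI1, were at 0 in all 6 libraries, no marker exceeded 1 read in any library, and their summed TPM was 0 to 6.47 in wild type and 0.532 to 5.24 in labelled knockout. Of 10 mesenchymal markers, 7 were above 0 in all 6 libraries, with sums of 11892 to 14319 TPM in wild type and 5717 to 5834 TPM in labelled knockout. COL1A1 alone had 9612 to 11995 TPM in wild type and 749 to 865 TPM in labelled knockout, while the other 9 markers summed to 2280 to 2405 TPM in wild type and 4918 to 5013 TPM in labelled knockout. The part of these differences in the results below was not tested. METTL3 RNA was not lower in the libraries labelled knockout. Its level was 31.2, 31.6 and 25.4 TPM in wild type and 39.2, 40.0 and 42.7 TPM in labelled knockout (log2 change 0.48, SE 0.19, limma adjusted p = 0.106), and the authors' deposited table gave 0.09 (adjusted p = 0.654), so the RNA level does not check the label.

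In the rRNA-depleted libraries 5 of the 10 genes rose in labelled knockout: YTHDF1, YTHDF3, YTHDC2, FTO and IGF2BP2. None fell, and YTHDF2, YTHDC1, ALKBH5, IGF2BP1 and IGF2BP3 did not pass the test (limma on log2(TPM + 1), Benjamini-Hochberg adjusted p under 0.05 over 14789 genes). Over all genes tested 35.3% passed, 22.9% higher and 12.4% lower. The libraries of the 2 labels did not overlap for 9 of the 10 genes, 7 higher and 2 lower. Of all genes tested 62.7% did not overlap, 41.1% higher and 21.6% lower. These shares have labelled knockout libraries 1 and 2 averaged, which makes overlap rarer than with 6 libraries. Only ALKBH5 overlapped. The median log2 change of the 10 was 1.37 and that of all genes tested 0.41, so all values on this scale carry a shift that scaling by the median ratio lowers to 0.11. That scaling also moved the share of higher among all called genes from 64.8% to 48.6%, with 32.9% of genes called. Among the 10 genes, median ratio scaling and quantile normalization each called 4 higher and 2 lower, removal of the GC trend 2 higher and 2 lower, and voom on recovered reads 5 higher and 2 lower. The 2 lower were YTHDC1 and IGF2BP3 each time. In bulk RNA, fewer cells of a type and less RNA per cell cannot be told apart.

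**Figure D1:**
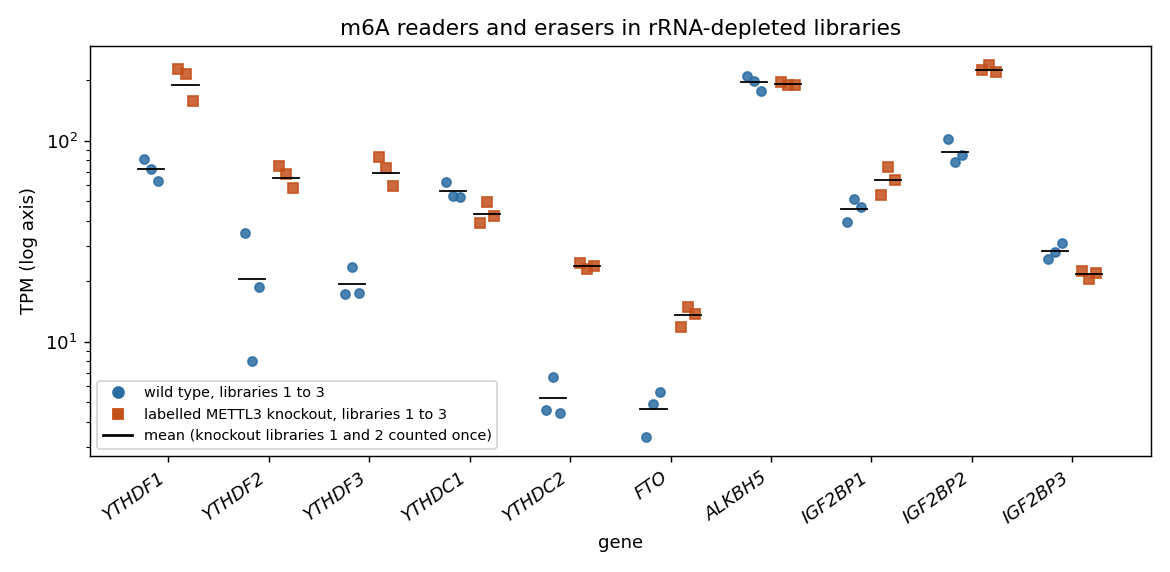
TPM (log axis) of each of the 10 genes in every rRNA-depleted library, with wild type as circles, labelled METTL3 knockout as squares and the mean of each label as a bar, knockout libraries 1 and 2 counted once. The circles and squares are apart for every gene except ALKBH5, and YTHDC1 and IGF2BP3 are the genes with the squares below.

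Among the cytoplasmic readers, YTHDF1 and YTHDF3 rose and the sum of the 3 YTHDF genes averaged 112 ± 18.6 TPM in wild type (SD, n = 3) and 324 ± 67.0 TPM in labelled knockout (SD, n = 2), a ratio of 2.89. YTHDF1, the reader first described as promoting translation, had 81.5, 72.1 and 63.5 TPM in wild type and 228, 216 and 158 TPM in labelled knockout. All labelled knockout libraries lay above all wild-type libraries, and library 3 was the lowest of the former. This was a log2 change of 1.37 (SE 0.20, with a limma adjusted p = 0.00654), or 0.96 above the median of all genes tested. The gene lies at chr20:63195429-63216234 on GRCh38, as annotated in GENCODE 29, the source of the gene positions below.

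YTHDF3, a paralogue that works with the other YTHDF proteins, had 17.2, 23.5 and 17.5 TPM in wild type and 83.2, 72.9 and 59.7 TPM in labelled knockout. The lowest labelled knockout library was above the highest wild-type library. YTHDF3 thus rose by 1.78 on the log2 scale (SE 0.24, limma adjusted p = 0.00535). The reads behind it were 47 in all wild-type libraries and 374 in all labelled knockout libraries. Scaled to TPM, the ratio was 3.94, with an exact 95% interval of 2.90 to 5.45 for counting error only. Ratios of reads here and below are scaled to TPM, not to depth, so they carry the shift of all genes on that scale.

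YTHDF2 (chr1:28736621-28769775), which recruits the CCR4-NOT deadenylase to marked RNA, had 34.9, 8.04 and 18.6 TPM in wild type and 74.7, 68.1 and 58.6 TPM in labelled knockout. The wild-type libraries were scattered, the lowest resting on 3 reads, but none reached the lowest labelled knockout library. The log2 change of 1.83 (SE 0.59) did not pass (limma adjusted p = 0.0641), though 5 of 16 alternative processings called it. The ratio from 34 and 217 reads was 3.16 (exact 95% interval 2.19 to 4.68, for counting error only). Without wild-type library 2 the log2 change was 1.31 (limma adjusted p = 0.0522), and without wild-type library 1 it was 2.30 with a limma adjusted p of 0.0284. The pseudogene YTHDF2P1 had no read in wild type and 1, 5 and 1 reads in labelled knockout. It passed as higher from these few reads (log2 change 2.78, SE 0.38, limma adjusted p = 0.00585). Whether reads of the pair were exchanged in counting was not tested. No read was assigned to YTHDF1P1.

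YTHDC2 rose and YTHDC1 did not pass the test, while the sum of both was 61.3 TPM in wild type and 67.3 TPM in labelled knockout. YTHDC2 (chr5:113513683-113595285), the helicase reader, had 4.58, 6.70 and 4.43 TPM in wild type and 24.8, 23.0 and 23.9 TPM in labelled knockout. Wild type and labelled knockout were far apart and the labelled knockout libraries close together. The increase of 2.02 on the log2 scale (SE 0.35, limma adjusted p = 0.0112) was the largest of the 10 in the reported fit. With the GC trend removed, YTHDF2 (1.31) and YTHDF1 (1.24) exceeded YTHDC2 (1.10). The values of YTHDC2 came from 22 wild-type and 211 labelled knockout reads (ratio 4.75, exact 95% interval 3.05 to 7.73). Without labelled knockout library 3, which leaves 1 labelled knockout sample, its limma adjusted p was 0.0957.

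YTHDC1 (chr4:68310387-68350089), the nuclear reader, had 62.4, 53.0 and 52.8 TPM in wild type and 39.1, 49.9 and 42.2 TPM in labelled knockout. Every labelled knockout library was below every wild-type library, by a small margin for library 2. The log2 change was -0.36 (SE 0.15, limma adjusted p = 0.127), which is -0.77 from the median of all genes tested. It passed as lower in 4 of 16 alternative processings, with -0.71 after median ratio scaling (limma adjusted p = 0.0193) and -1.27 after removal of the GC trend (limma adjusted p = 0.00523). Within the pair, YTHDC2 made up 6.84, 11.2 and 7.74% of the summed TPM in wild type and 38.8, 31.6 and 36.1% in labelled knockout.

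Of the IGF2BP readers, IGF2BP2 rose while IGF2BP1 and IGF2BP3 did not pass, and the family sum averaged 162 ± 4.70 TPM in wild type (SD, n = 3) and 312 ± 7.77 TPM in labelled knockout (SD, n = 2). IGF2BP2, the member of the family that many adult tissues express, had 102, 78.7 and 84.7 TPM in wild type and 224, 240 and 221 TPM in labelled knockout. Even the lowest labelled knockout library was above the highest wild-type one. Its increase was 1.36 on the log2 scale (SE 0.14, limma adjusted p = 0.00321), and IGF2BP2 had the highest mean TPM of the 10 genes in labelled knockout, with libraries that overlapped those of YTHDF1. It lies at chr3:185643739-185825056 on the minus strand.

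IGF2BP1 (chr17:48997412-49055650), an oncofetal reader that is repressed by let-7, had 39.7, 51.1 and 46.7 TPM in wild type and 53.7, 74.3 and 63.8 TPM in labelled knockout. The groups were next to each other without overlap, and the log2 change of 0.48 (SE 0.16, limma adjusted p = 0.0762) was 0.07 from the median of all genes tested. IGF2BP3 (chr7:23310209-23470467), the other oncofetal paralogue, had 25.8, 28.0 and 31.0 TPM in wild type and 22.4, 20.6 and 22.0 TPM in labelled knockout. Here the labelled knockout libraries were the lower ones, also without overlap. The log2 change was -0.36 (SE 0.20, limma adjusted p = 0.216), -0.77 from the median of all genes, and 4 of 16 alternative processings called it lower. Exons of MALSU1, a mitochondrial ribosome assembly gene on the opposite strand, share 1521 bases (17.9%) of the IGF2BP3 exons. MALSU1 had 2 to 6 reads in wild type and 6 to 23 in labelled knockout, and the sources used here do not say whether counting used strand.

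**Figure D2:**
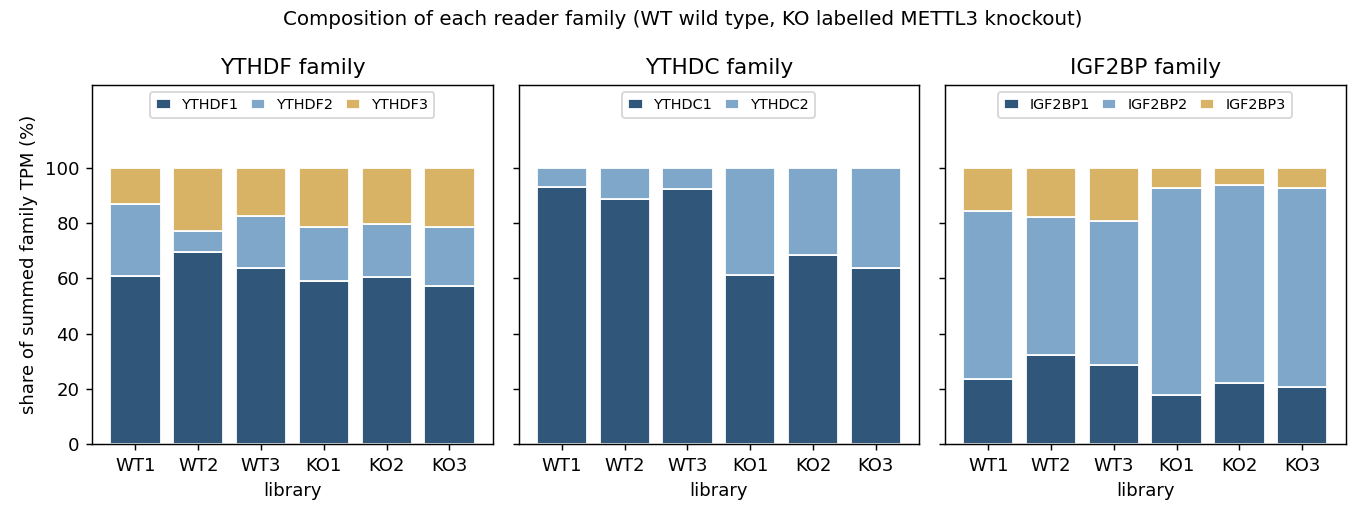
Share of each gene (percent of the summed TPM of its family) in every rRNA-depleted library, for the YTHDF, YTHDC and IGF2BP families. YTHDC2 takes 31.6 to 38.8% of its pair in labelled knockout against 6.84 to 11.2% in wild type, and IGF2BP3 6.15 to 7.47% of its family against 15.4 to 19.1%.

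Shares within a library do not move with a factor common to all genes of that library. IGF2BP2 made up 54.3 ± 5.79% of the family in wild type (SD, n = 3) and 72.6 ± 0.749% in labelled knockout (SD, n = 2). IGF2BP3 made up 17.4 ± 1.84% and 6.97 ± 0.283%, and IGF2BP1 28.3 ± 4.36% and 20.5 ± 0.466%. For all 3 the groups were apart. In the YTHDF family YTHDF1 remained the largest share, with 64.8 ± 4.37% in wild type and 58.5 ± 1.78% in labelled knockout, and the shares of YTHDF2 and YTHDF3 overlapped between the groups. An exact permutation test of 3 samples against 2 cannot go below p = 0.2, so the shares are given without one.

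Of the erasers, FTO rose and ALKBH5 did not pass the test. FTO (chr16:53701692-54158512), which also demethylates the cap-adjacent m6Am, had 3.34, 4.88 and 5.65 TPM in wild type and 11.9, 14.9 and 13.7 TPM in labelled knockout. The groups were apart, but the wild-type values stand for 2, 2 and 4 reads. FTO rose by 1.39 on the log2 scale (SE 0.40, limma adjusted p = 0.0454), and 5 of 16 alternative processings called it. Leaving out any 1 library except labelled knockout library 1 ended the call, with limma adjusted p values of 0.0583 to 0.172. The ratio of 2.91 from 8 and 47 reads had an exact 95% interval of 1.36 to 7.12.

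ALKBH5 (chr17:18183078-18209954), an eraser found in nuclear speckles, had 211, 198 and 178 TPM in wild type and 196, 189 and 190 TPM in labelled knockout. The labelled knockout libraries lay within the wild-type range. The log2 change was -0.03 (SE 0.11, limma adjusted p = 0.868), and 0 of 16 alternatives called it. By TPM in these libraries ALKBH5 was the more abundant eraser, and the sum of both erasers was 200.3 ± 15.3 TPM (SD, n = 3) in wild type and 205 ± 1.44 TPM (SD, n = 2) in labelled knockout. The 5 YTH genes together had 0.937, 0.806 and 0.852 TPM for each TPM of the erasers in wild type and 2.16, 2.11 and 1.68 in labelled knockout. For the IGF2BP genes this ratio was 0.780, 0.778 and 0.883 in wild type and 1.44, 1.64 and 1.50 in labelled knockout. Neither ratio overlapped between the labels, as was so for 62.7% of single genes tested with labelled knockout libraries 1 and 2 averaged. ALKBH5 made up 97.7% of the eraser sum in wild type and 93.4% in labelled knockout, so it sets most of the denominator. The GC trend described below was not removed from these ratios.

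Per length, the order in wild type was ALKBH5, IGF2BP2, YTHDF1, YTHDC1, IGF2BP1, IGF2BP3, YTHDF2, YTHDF3, YTHDC2 and FTO. The neighbours IGF2BP2 and YTHDF1, IGF2BP3 and YTHDF2, YTHDF2 and YTHDF3, and YTHDC2 and FTO overlapped in their libraries. The mean TPM of ALKBH5 was 42.3 times that of FTO. In labelled knockout the order was IGF2BP2, ALKBH5, YTHDF1, YTHDF3, YTHDF2, IGF2BP1, YTHDC1, YTHDC2, IGF2BP3 and FTO. There ALKBH5 and IGF2BP2 each overlapped YTHDF1, YTHDF3 overlapped YTHDF2, and YTHDF2 overlapped IGF2BP1. The highest mean was 16.7 times the lowest.

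In the poly(A) libraries 2 of the 10 genes passed, YTHDF3 and IGF2BP2, both higher and both also called in the rRNA-depleted libraries. The authors' deposited table called 19.9% of 14009 genes with an adjusted p, 9.55% higher and 10.3% lower, so 2 of 10 is near this background. It does not state which genotype is the numerator. A positive value is taken as higher in labelled knockout, because 162 of the 177 genes (91.5%) called in both library types and at least 1 log2 unit from 0 then had the same sign. None of the 10 genes was that far from 0 in the authors' deposited table, and agreement among smaller changes was not computed. With the opposite numerator every direction from that table would turn. For YTHDF3 the authors' deposited table gave a log2 fold change of 0.48 (SE 0.12, adjusted p = 0.00118). For IGF2BP2 the authors' deposited table gave 0.37 (SE 0.11, adjusted p = 0.00442). Both values are smaller than those from the rRNA-depleted libraries, and the difference between the library types was not tested.

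The other 8 genes did not pass there. In the authors' deposited table IGF2BP3 had 0.69 (SE 0.30, adjusted p = 0.0879), YTHDC1 0.31 (SE 0.13, adjusted p = 0.0783) and YTHDC2 0.28 (SE 0.14, adjusted p = 0.165). IGF2BP3 and YTHDC1 are thus above 0 in that table and below 0 in the rRNA-depleted libraries, with no call in either. The authors' deposited table had FTO at 0.03 (SE 0.14, adjusted p = 0.927), IGF2BP1 at -0.01 (SE 0.17, adjusted p = 0.980) and YTHDF1 at -0.10 (SE 0.24, adjusted p = 0.837). YTHDF1, which rose in every processing of the rRNA-depleted libraries, therefore had no call and the opposite sign here. YTHDF2 was at -0.16 (SE 0.08, adjusted p = 0.172) and ALKBH5 at -0.70 (SE 0.33, adjusted p = 0.124) in the authors' deposited table. The median of the 10 was 0.16 and that of all genes 0.02 in the authors' deposited table.

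**Figure D3:**
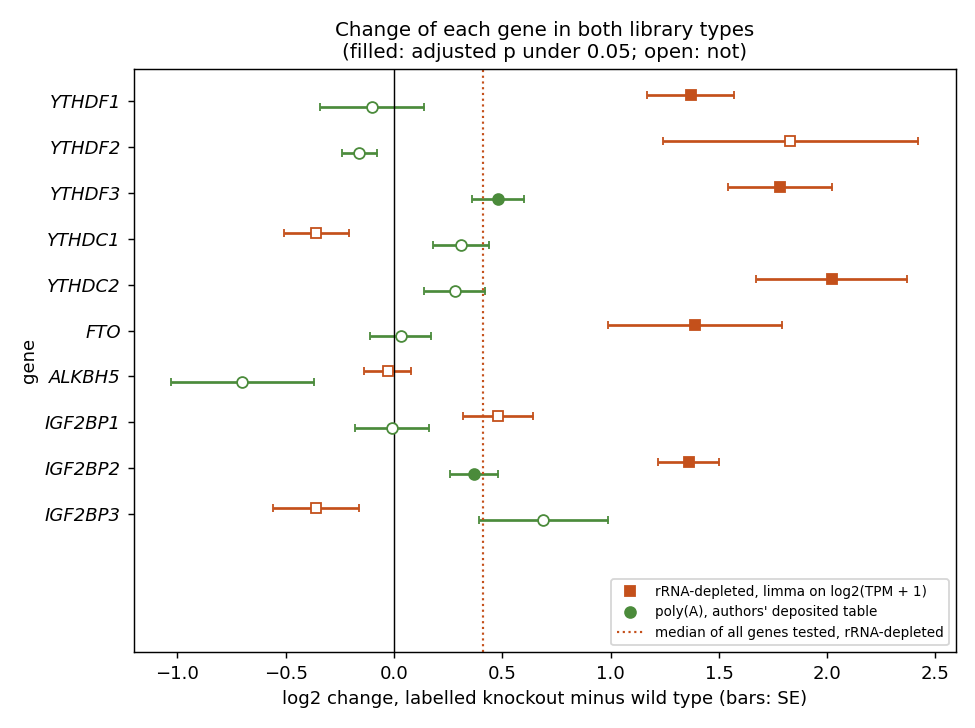
Log2 change (labelled knockout minus wild type, bars SE) of each gene, with squares for the rRNA-depleted libraries, circles for the authors' deposited table of the poly(A) libraries, filled symbols for an adjusted p under 0.05 and a dotted line at the median of all genes in the rRNA-depleted libraries. Of the symbols 5 squares and 2 circles are filled, and YTHDC1 and IGF2BP3 have their square below 0 and their circle above 0.

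The change of a gene went with its GC content across the rRNA-depleted libraries. Over 14669 genes tested with a GC value Spearman's rho was -0.37, a description across genes that share libraries. The median log2 change was 1.29 for genes under 38% GC and -0.43 for genes over 62%. YTHDF3 (38.8% GC) and YTHDC2 (40.1%) are thus among genes that were mostly higher, with changes 0.62 and 0.97 above the median of genes within 2 points of their GC content. YTHDC1 (40.3%) and IGF2BP3 (40.5%) have nearly the same GC content and were 1.40 and 1.39 below that median. YTHDF2 (47.5%) and YTHDF1 (51.9%) were 1.16 and 1.10 above it, and IGF2BP2 (48.7%) and FTO (46.5%) 0.80 and 0.71 above it. IGF2BP1 (49.6%) and ALKBH5 (54.9%) were within 0.08 of it. With the GC trend removed, YTHDF1 (1.24) and IGF2BP2 (0.94) still passed as higher, while YTHDF3 (0.79, limma adjusted p = 0.0724), YTHDC2 (1.10, limma adjusted p = 0.0965) and FTO (0.81, limma adjusted p = 0.214) did not. YTHDC1 (-1.27, limma adjusted p = 0.00523) and IGF2BP3 (-1.26, limma adjusted p = 0.0138) passed as lower in that fit. The GC content of FTO is that of a transcript of 11766 bases, while its TPM implied 4241 bases. Its GC-based values may therefore not be those of the sequence counted.

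**Figure D4:**
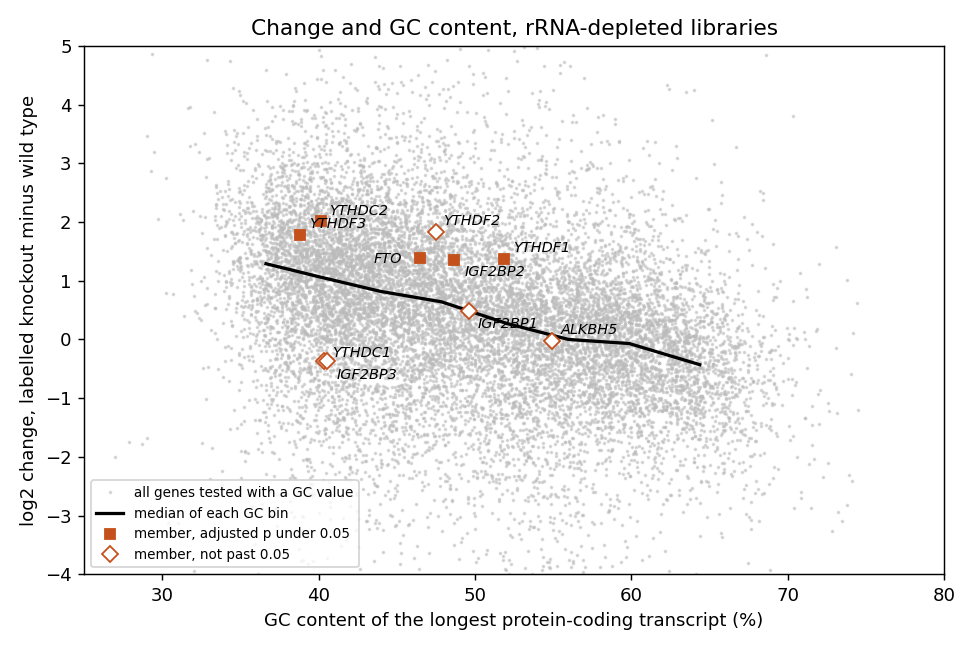
Log2 change (labelled knockout minus wild type) against GC content (%) of the longest coding transcript for all genes tested (grey, 269 outside the axes), with the median of each GC bin as a line, filled squares for the genes that passed and open diamonds for the others. YTHDC1 and IGF2BP3 lie far below the line, at nearly the GC content of YTHDC2, which lies above it.

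Over 16 alternative processings YTHDF1 and IGF2BP2 passed in all 16, YTHDF3 in 15 and YTHDC2 in 14. FTO and YTHDF2 passed in 5 each, IGF2BP1 in 1 and ALKBH5 in 0. The direction of these changes held in all 16 for 9 genes, while ALKBH5 ranged from -0.38 to 0.03.

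**Figure D5:**
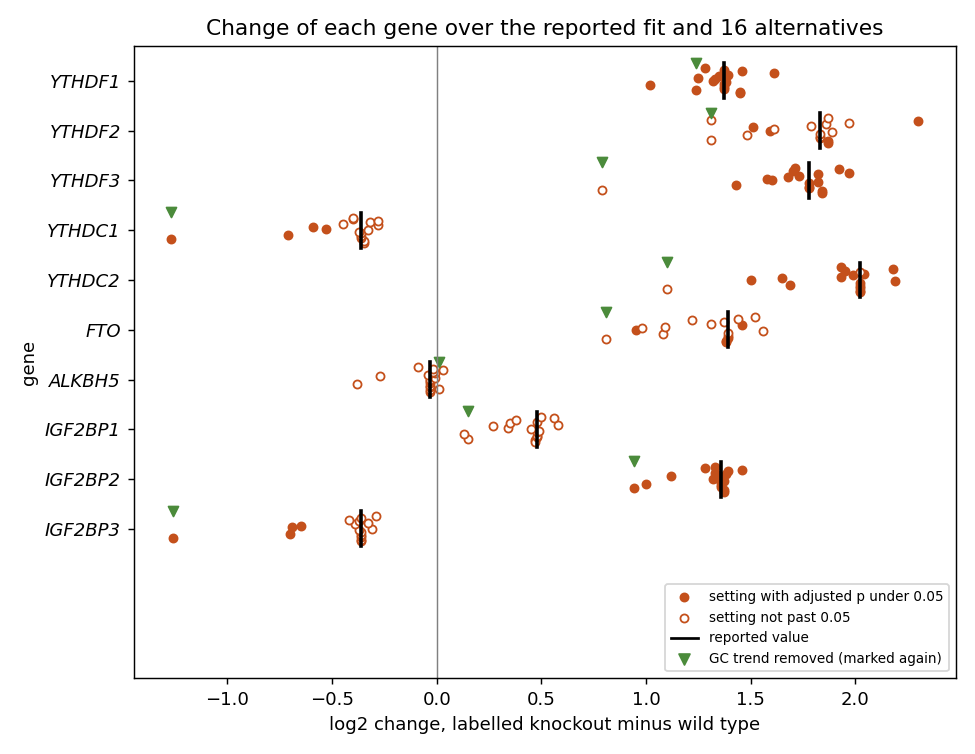
Log2 change (labelled knockout minus wild type) of each gene under 16 alternative processings, filled where the adjusted p was under 0.05, with the reported value as a black bar and removal of the GC trend marked again by a triangle. YTHDF1 and IGF2BP2 have filled points throughout, and the triangles of YTHDC1 and IGF2BP3 are the points farthest below 0.

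Genes that write m6A or act beside the readers were described from lists. For comparison, 22.9% of all genes tested rose and 12.4% fell, with a median log2 change of 0.41. The median was 1.29 for genes under 38% GC and 1.06 for those from 38 to 42%. This GC trend was not removed from the counts and medians of any list. The authors' deposited table called 9.55% of its genes higher and 10.3% lower. Of the 8 genes of the methyltransferase complex, 4 rose and 0 fell, with a median log2 change of 0.64. VIRMA, the scaffold that guides methylation to the 3′ UTR, averaged 11.4 ± 1.60 TPM in wild type (SD, n = 3) and 44.7 ± 1.33 TPM in labelled knockout (SD, n = 2), a shift of 1.89 on the log2 scale (SE 0.24, limma adjusted p = 0.00474). CBLL1, the ubiquitin ligase subunit also called HAKAI, averaged 4.24 ± 2.29 TPM in wild type (SD, n = 3) and 35.6 ± 1.35 TPM in labelled knockout (SD, n = 2), a shift of 2.91 on the log2 scale (SE 0.50, limma adjusted p = 0.0108). Its wild-type values stand for only 5, 1 and 4 reads, against 56, 70 and 31 in labelled knockout. CBLL1 was the 1 gene of the complex called in the authors' deposited table, at 0.37 (adjusted p = 0.00135). Of 6 genes listed for other adenosine N6-methyltransferases, among them the partner protein TRMT112, 1 rose and 2 fell, with a median of 0.20. METTL16, which methylates U6 snRNA, fell by 1.13 on the log2 scale (SE 0.21, limma adjusted p = 0.0127). METTL4 passed as higher, but had 1, 0 and 0 reads in wild type and 9, 12 and 8 in labelled knockout. TRMT112, the partner of METTL5, was the other that fell, at -0.69 (SE 0.14, limma adjusted p = 0.0188). It was also the 1 called in the authors' deposited table, at -0.74 (adjusted p = 2.06e-05).

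Of 11 further RNA-binding proteins reported to respond to m6A, 9 rose and 0 fell, with a median log2 change of 1.30. Over all genes tested 22.9% rose and 12.4% fell, with a median of 0.41. GC content in this list ran from 37.6 to 61.7%, and the part of the GC trend in these counts was not tested. RBMX, a nuclear protein that binds RNA opened by m6A, rose by 2.43 on the log2 scale (SE 0.21, limma adjusted p = 0.00207), and FXR1, a paralogue of FMR1, by 2.03 (SE 0.21, limma adjusted p = 0.00302). The authors' deposited table called 3 of the 11 higher and 1 lower, with HNRNPC, a pre-mRNA packaging protein, at 0.65 (adjusted p = 0.0147). Over all its genes it called 9.55% higher and 10.3% lower. The 1 lower was HNRNPA2B1, at -0.27 in the authors' deposited table (adjusted p = 1.54e-05). HNRNPA2B1 was called in the opposite direction in the rRNA-depleted libraries, at 0.53 (SE 0.11, limma adjusted p = 0.0202). RBMX and FXR1 were both at 0.01 in the authors' deposited table, with adjusted p of 0.953 and 0.956.

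Of 16 effectors and partners of YTH proteins, 9 rose and 1 fell, with a median log2 change of 1.46. The shares over all genes tested were 22.9% and 12.4%, and the median was 0.41. GC content in this list ran from 34.1 to 60.5%, and the part of the GC trend in these counts was not tested. CNOT1, the scaffold of the CCR4-NOT deadenylase that YTHDF2 contacts, averaged 24.5 ± 4.35 TPM in wild type (SD, n = 3) and 125 ± 19.6 TPM in labelled knockout (SD, n = 2), a shift of 2.31 on the log2 scale (SE 0.21, limma adjusted p = 0.0024). RIDA, which bridges YTHDF2 to RNase P, also passed, from 1, 0 and 0 reads in wild type to 9, 9 and 5 in labelled knockout. SRSF3, a splicing factor that works with YTHDC1 and the 1 gene of the list that fell, averaged 281 ± 13.5 TPM in wild type (SD, n = 3) and 151 ± 15.5 TPM in labelled knockout (SD, n = 2), a shift of -0.90 on the log2 scale (SE 0.11, limma adjusted p = 0.00461). It was also lower in the authors' deposited table, at -0.38 (adjusted p = 1.19e-06). MEIOC, the meiotic partner of YTHDC2, had -2.34 (adjusted p = 0.00842) in the authors' deposited table and 2, 1 and 6 wild-type reads against 0 in each labelled knockout library of the rRNA-depleted set.

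For the next 2 lists too, the shares over all genes tested are 22.9% higher and 12.4% lower, with a median of 0.41. Of 7 other AlkB dioxygenases, relatives of the erasers, 1 rose and 1 fell, with a median of 1.26. ALKBH1 rose by 1.26 on the log2 scale (SE 0.29, limma adjusted p = 0.0238) and ALKBH4 fell by 1.73 on the log2 scale (SE 0.17, limma adjusted p = 0.00271). ALKBH3, a repair dioxygenase, was the 1 called in the authors' deposited table, at -0.51 (adjusted p = 0.00349). Of 12 listed cofactors and client messages of IGF2BP proteins 9 were tested, of which 4 rose and 2 fell, with a median of 1.06. CD44, a hyaluronan receptor whose message IGF2BP proteins bind, averaged 28.1 ± 1.42 TPM in wild type (SD, n = 3) and 320.5 ± 0.971 TPM in labelled knockout (SD, n = 2), a shift of 3.47 on the log2 scale (SE 0.12, limma adjusted p = 0.000689). PABPC1, the cytoplasmic poly(A)-binding protein, rose by 2.02 on the log2 scale (SE 0.12, limma adjusted p = 0.00118). The authors' deposited table called 3 of this list higher and 2 lower, against 9.55% and 10.3% of all its genes. HMGA2, a let-7 target and IGF2BP client, had 1.13 in the authors' deposited table (adjusted p = 8.68e-16). HMGA2 also rose in the rRNA-depleted libraries, by 1.50 (SE 0.18, limma adjusted p = 0.00424). Of the mesenchymal markers tested, 3 rose and 4 fell, with VIM higher by 2.24 (SE 0.11, limma adjusted p = 0.000872) and COL1A1 lower, at -3.70 (SE 0.15, limma adjusted p = 0.000689). COL6A1 was lower in the rRNA-depleted libraries, at -1.21 (SE 0.10, limma adjusted p = 0.0020), and higher in the authors' deposited table, at 0.92 (adjusted p = 4.67e-06). COL1A2 (-2.18, and 0.30 in the authors' deposited table) and FN1 (1.39, and -0.34 there) were likewise called in opposite directions. VIM, THY1 and COL1A1 were called in the same direction in both.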

How the data were processed

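RNA-seq libraries of HMC3 cells were assigned to groups from their titles. What the authors deposited for poly(A) RNA is 1 comparison table. Its columns are, per the file headers, the mean normalized count (a pooled signal), the log2 fold change and its SE, the Wald statistic (a score), the p-value and its adjusted form. Since single libraries are not in it, the table was described and not retested, although a count test had been planned. What the authors deposited for rRNA-depleted RNA is TPM per gene and library, per the file headers. The submitters' processing notes name Trimmomatic, STAR, DESeq2 and hg38. Annotation and use of strand are not given in the sources used here.

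Gene lengths, GC content and positions came from GENCODE 29, which matched 56927 of 60669 identifiers (93.8%). Whole reads were recovered from TPM by these lengths, 90.9% of values above 0 being whole within 0.02 reads, or by the common step of a gene's 6 values for 1515 more genes. FTO is among them, with a length of 4241 bases instead of 21379. Recovered reads per library ran from 266157 to 1267171.

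The test was limma 3.58.1 (lmFit, eBayes with trend, R 4.3.3) on log2(TPM + 1), which understates the change of low genes. It covered the 14789 genes that reached 1 TPM in 3 or more libraries, with Benjamini-Hochberg adjustment at 0.05. The 3 replicates of each label share numbers, but no pairing was found. Alternatives covered scaling, GC trend, pseudocount, filter, threshold, voom on recovered reads, a replicate block and leaving out each library. Tested on simulated data for 14688 genes with 200 changed, the fit recovered 142 (71%) at a log2 change of 2, with 2 others called, and 0 at a log2 change of 1. The changed genes were drawn from those not low in reads. In the data 35.3% of genes passed, which makes the adjusted threshold looser than in the simulation. These shares therefore do not measure the power of the reported fit or for genes with few reads. Promoters and let-7 come from RefSeq (GRCh38.p14), with 8 of the 10 genes matched. Motifs were searched on both strands. Windows around let-7 matches come from GENCODE 29 transcripts. Other steps used Python 3.11.15, numpy 2.4.6, pandas 2.3.3, scipy 1.17.1 and matplotlib 3.10.9.

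The 10 genes and the lists were chosen with earlier results of these data known. Named outside the 10 are METTL3, genes overlapping or paralogous to the 10, and for each list the 2 largest changes that passed in the rRNA-depleted libraries and the 1 largest in the poly(A) table. SRSF3, HNRNPA2B1, COL1A2, FN1, THY1 and the markers named at 0 were chosen after their values were seen.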

Additional observations from a re-analysis of the deposited data

How the results depend on the processing

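Leaving out each replicate in turn gave 1663 to 5185 genes called in the rRNA-depleted libraries, and 3 to 5 of the 10 readers and erasers. The lowest values of both, 1663 and 3, came without labelled knockout library 3, which leaves 1 labelled knockout sample that is assumed to vary like wild type. A threshold of 0.01 left 2242 genes and 3 of the 10 in the rRNA-depleted libraries. In the authors' deposited table a threshold of 0.01 left 1811 genes. Keeping the threshold of 0.05 there and requiring a log2 fold change of 0.5 or more in size left 1733 genes and 0 of the 10. ALKBH5 turned from -0.03 to 0.01 with the GC trend removed (limma adjusted p = 0.983) and ranged from -0.09 to 0.03 when 1 replicate was left out, above 0 without wild-type replicate 1. The difference in YTHDF2's share of its family was 2.68 percentage points and ranged from -2.20, without wild-type replicate 2, to 6.96, without wild-type replicate 1. The cause was not tested for any of these. Same-numbered libraries of the 2 labels deviated together with correlations of 0.02, -0.02 and 0.01, so the numbers do not pair them. With the 6 libraries kept separate the fit called 6880 genes and 6 of the 10, adding YTHDF2, and a fit with the replicate block on those libraries called 6037 genes and 7 of the 10, adding IGF2BP1 to those 6. Counts of calls under the other scalings, pseudocounts, filters and voom were within 1.5 times those reported. Depth limits FTO, YTHDF2 and YTHDC2 most, whose wild-type libraries hold 2 to 19 reads.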

Other observations

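The order of the 10 genes differed between the library types. Dividing the mean normalized count of the authors' deposited table by gene length put YTHDF3 first, with 139 per kb, then YTHDF2 with 72.7 and IGF2BP2 with 40.1. FTO had 20.8 per kb and ALKBH5, in ninth place, 6.72 per kb in the authors' deposited table, the reverse of their order by TPM. This reversal depends on the length of FTO, taken as the 4241 bases recovered from its TPM. With its annotated length of 21379 bases FTO would lie below ALKBH5, and both would change place. In wild-type rRNA-depleted libraries ALKBH5 had the highest TPM of the 10. YTHDF1, which only ALKBH5 and IGF2BP2 exceeded in mean TPM, had 9.59 per kb in the authors' deposited table. The values of the authors' deposited table are means over both genotypes and carry no spread, so this difference was not tested.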
